A study of Mus musculus with 2 samples.

Results

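The Na,K-ATPase genes described here are the 4 beta subunit genes Atp1b1, Atp1b2, Atp1b3 and Atp1b4 and the regulatory subunit gene Fxyd1, 5 of the 19938 genes measured. They were taken as the probe sets that the platform annotation pairs with exactly 1 of these genes, which gave 6 probe sets of the 21789 with 1 gene. The family was chosen by a measured value, the Atp1b4 signal, which was more than 16-fold lower in the double knockout, so the Atp1b4 values describe that choice and are not evidence for it. Total RNA of the fetal mouse ear at E18.5 was hybridised to 2 Affymetrix arrays, 1 of BALB/c wild-type tissue and 1 of BALB/c tissue null for both Myf5 and Myod1, which encode transcription factors that set cells on the skeletal muscle path. The alleles, the part of the ear taken and the number of embryos behind each array are not stated in the labels. No difference below has a replicate check, and none was tested.

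The Na,K-ATPase carries sodium out of the cell and potassium into it against their gradients. The catalytic subunit does the transport and splits ATP, the beta subunit is a glycoprotein needed to fold the pump and bring it to the cell surface, and small FXYD proteins tune its ion affinity. Muscle fibres depend on the pump to restore ion gradients after contraction, and in the inner ear the pump of the stria vascularis helps to keep the endolymph rich in potassium. Atp1b4 stands apart in this family: in placental mammals its product has been described as a protein of the inner nuclear membrane of muscle cells that no longer serves the pump and that binds the transcriptional co-regulator Snw1.

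The sequences upstream of the start sites are shown because Myf5 and Myod1 belong to a class of factors that binds the letters CANNTG, called an E-box, and because Atp1b4 and the broadly active beta genes differed in the array values below. Each run holds the 250 bases before a RefSeq start site on GRCm38.p6, written 5′ to 3′ on the gene's strand, and capitals mark each E-box and each GC box (GGGCGG or its reverse complement) that a search of both strands found. The windows are chrX:38315872-38316121 on the plus strand for Atp1b4, chr1:164458356-164458605 on the minus strand for Atp1b1 and chr9:96364432-96364681 on the minus strand for Atp1b3.
Atp1b4: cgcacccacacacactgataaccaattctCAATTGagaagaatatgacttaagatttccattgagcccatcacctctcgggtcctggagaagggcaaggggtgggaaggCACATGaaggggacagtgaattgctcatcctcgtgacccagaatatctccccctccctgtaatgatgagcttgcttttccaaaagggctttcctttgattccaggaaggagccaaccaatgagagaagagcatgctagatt
Atp1b1: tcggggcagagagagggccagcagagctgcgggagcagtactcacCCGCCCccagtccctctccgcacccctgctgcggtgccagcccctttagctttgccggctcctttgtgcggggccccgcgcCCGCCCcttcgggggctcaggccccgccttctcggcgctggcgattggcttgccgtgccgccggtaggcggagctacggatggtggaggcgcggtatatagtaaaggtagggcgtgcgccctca
Atp1b3: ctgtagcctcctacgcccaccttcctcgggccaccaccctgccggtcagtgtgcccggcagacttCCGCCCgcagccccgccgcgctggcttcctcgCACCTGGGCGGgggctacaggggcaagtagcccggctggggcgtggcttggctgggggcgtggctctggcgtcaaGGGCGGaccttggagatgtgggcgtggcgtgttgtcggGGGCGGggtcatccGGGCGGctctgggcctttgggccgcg

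The Atp1b4 window held 2 E-boxes, CAATTG at -221 to -216 and CACATG at -141 to -136, counted from -1 at the base before the start site, and 0 GC boxes. Of 32851 promoter windows of the same length, 66.2% held at least 1 E-box and 31.8% held 2 or more, so these letters are common. The Atp1b1 window held 0 E-boxes and 2 GC boxes, and the Atp1b3 window held 1 E-box and 5 GC boxes, of which 1 overlaps the E-box by its first base. A GC box was found in 32.7% of all windows. The MCAT letters CATTCC (12.6% of windows), the MEF2 site (2.92%) and the CArG box (1.47%) were also searched on both strands and were found in none of the 3 windows. Base composition differed between the beta genes shown: the Atp1b4 window was 48.4% G and C, near the median of 52.4% over all windows. The windows of Atp1b1 (70.4%) and Atp1b3 (73.6%) were the unusual ones, with 91.2% and 94.7% of all windows lower. No promoter window was available for Atp1b2. A letter match is a description and not a binding site. The windows listed for Fxyd1 and for another Atp1b3 start lie inside the annotated genes and are not printed.

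The arrays each held 35557 probe sets, and their median log2 signals were 5.65 (wild type) and 5.70 (double knockout). Those medians served as the floor: lower values were raised to it, and a fold with 1 side at the floor is a bound, written "at least". Of the targeted genes, Myod1 read 6.95 in wild-type and 6.38 in double-knockout ear, and Myf5 read 5.94 and 5.25, the last below the floor. Whether either probe set lies in the deleted part of its gene is not given, so these values do not check the labels. The 15 skeletal muscle markers, such as Acta1 and Ckm, were all past 2-fold and lower in the double knockout, with summed linear signals of 32900 and 657. In the other direction, 8 of 9 salivary gland markers were at least 2-fold higher, summing to 431 and 11300, so the arrays also differ in signals other than those of muscle. Of the 9 measured markers of stria vascularis and endolymph, 8 were above the floor on both arrays and Slc26a4, the pendrin gene, was below it on both.

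Among the 5 genes, only Atp1b4 was past 2-fold, and it was far lower in the double knockout. Atp1b2 and Fxyd1 were slightly lower there, and Atp1b1 and Atp1b3 stood at 103% and 109% of the wild-type linear signal. All 5 genes were above the floor in the wild type and 4 were above it in the double knockout. Of the 12458 genes that exceeded the floor on 1 array or both, 1.71% were at least 2-fold lower and 0.482% at least 2-fold higher. The count of 1 lower gene here was fixed by the choice of the family, and nothing is read from it. The median difference of the 5 genes was -0.40 on the log2 scale, beside -0.01 over all genes. That median includes Atp1b4, the gene by which the family was chosen, so nothing is read from it either. The other 4 genes lay between -0.42 and 0.13.

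**Figure D1:**
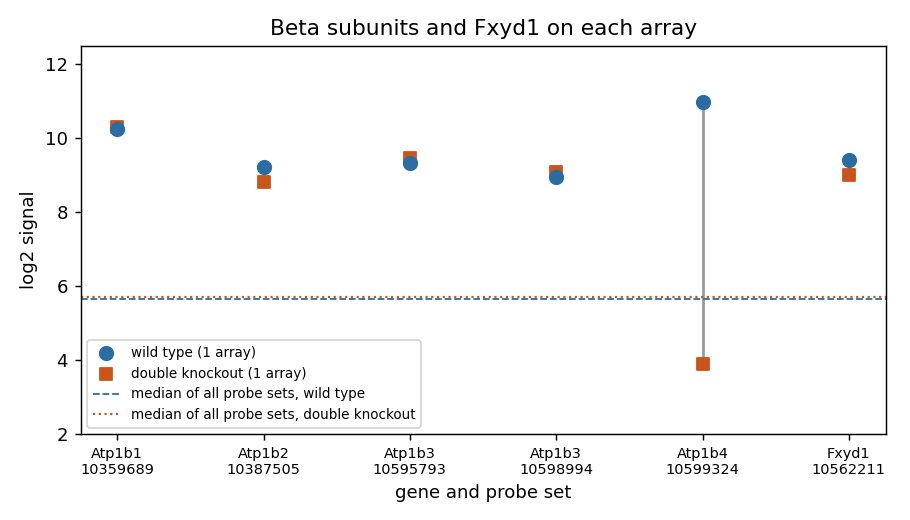
The log2 signal of each of the 6 probe sets (vertical axis) is plotted for the wild-type array (circles) and the double-knockout array (squares), with each array's median over all probe sets as a line. Atp1b4 is at 10.99 and 3.90, the latter below the line, while the other 5 probe sets stay between 8.82 and 10.30 on both arrays.

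Atp1b4 (probe set 10599324) read 10.99 in wild-type and 3.90 in double-knockout ear. The double-knockout value stood at -1.80 relative to that array's floor and the wild-type value at 5.35 above its own, so the gene was detected above the floor on the wild-type array alone. With the low value raised to the floor the log2 difference was -5.29, or at least 39.1-fold lower. On the deposited values without a floor the log2 difference was -7.09, but a signal this low has no firm meaning as a fold. With the floor applied, 8 of the 12458 genes had a lower difference than Atp1b4, and 29 (0.233%) were at least 16-fold lower. Within the family Atp1b4 lay inside that limit, and the next gene, Atp1b2, lay outside it at 1.34-fold. The Atp1b4 difference is a bound, so its rank among all genes depends on the floor. The family was chosen by this value, so nothing is read from the rank.

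The skeletal muscle markers, listed with earlier results of these data known, were also far lower in the double knockout. Their differences ran from -6.46 for Acta1, the skeletal actin, to -3.39 for Mylpf, a fast myosin light chain, with a median of -5.25, and 9 of the 15 had, like Atp1b4, a double-knockout signal at the floor. In whole-tissue RNA, fewer cells of a type and less RNA per cell cannot be told apart, and what part the muscle cells had in the Atp1b4 difference was not tested. Of the 8 heart muscle markers 5 were below the floor on both arrays, among them Myh6, Myl7 and Nppa, genes of the atrium and heart. The other 3 were above it in the wild type alone: Myl2, a ventricular light chain that slow skeletal muscle also makes, read 7.12 and 4.25 (at least 2.67-fold lower), Gja5, a connexin gene of heart and arteries, read 6.60 and 5.66 (at least 1.86-fold lower), and Ryr2, the heart calcium release channel, read 5.65 and 5.59. These 3 had a median of -0.90. The genes nearest to Atp1b4 by Euclidean distance over the 2 arrays' log2 values were Myh3, the embryonic myosin heavy chain, at 0.71, and Myh8, the perinatal one, at 0.76. They were followed by the Z-disc genes Myot, at 0.81, and Myoz1, at 1.05, and by the fast troponin C gene Tnnc2, at 1.08. With 2 arrays this measure asks only for a like signal on each, and it does not rank transcript amounts between genes. It starts from the Atp1b4 values by which the family was chosen, so it could only return genes that were also far lower. It was taken on the deposited values without the floor. The double-knockout values of Atp1b4 (3.90) and of these genes (3.53 to 4.84) all lay below the floor of 5.70. The order of these genes therefore rests in part on signals too low to have a firm meaning.

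Atp1b4 lies on the X chromosome, so sex-linked signals are given beside it. Eif2s3y, a Y-linked translation factor gene, read 2.67 in wild-type and 5.85 in double-knockout ear, and Uty, a Y-linked demethylase gene, read 2.35 and 5.83. Kdm5d, also Y-linked, read 3.20 and 5.02, and Xist, the RNA of the inactive X chromosome, read 10.68 and 10.28. Xist was thus well above the floor on both arrays. On the wild-type array the Y-linked values lay well below the floor of 5.65. Kdm5d was below the floor on both arrays, and Eif2s3y and Uty passed it narrowly in the double knockout alone. The floored differences of Eif2s3y and Uty were 0.20 and 0.19. Without a floor, Eif2s3y, Uty and Kdm5d were higher in the double knockout by 3.18, 3.48 and 1.82. Wild-type values this low have no firm meaning as folds. The part of these sex-linked signals in the Atp1b4 value was not tested. With 1 array per genotype, sex and genotype cannot be told apart. The neighbours of Atp1b4 did not share its size of difference: Tmem255a, which lies next to it, read 8.55 and 7.99, and Lamp2, a lysosomal membrane protein gene on the other side, read 9.99 and 9.85. Zbtb33 and Cul4b, the next ones out, differed by -0.06 and -0.13, and Rhox13 and Mcts1 were below the floor on both arrays. Over the 399 X-linked genes that exceeded the floor the median difference was -0.04, and 12 of them (3.01%) were at least 2-fold lower, beside 1.67% of 12037 autosomal genes.

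Atp1b1 (probe set 10359689), the most widely used beta subunit and the one of most epithelia and of neurons, read 10.25 in wild-type and 10.30 in double-knockout ear. The difference of 0.05, or 1.03-fold higher, was smaller than the standard deviation of 0.168 between probe sets of the same gene, a figure from 619 genes that holds the noise of probes but no variation among animals. Among the neighbours of Atp1b1, Dpt, which encodes the dermal matrix protein dermatopontin, read 9.65 and 8.12, 2.87-fold lower, and Nme7 on the other side differed by 0.11. Of the neighbours further out, Blzf1 differed by -0.31, and Ccdc181, Xcl1 and Tbx19 were below the floor on both arrays. The epithelial markers had a median of 0.18, with 0 of 7 past 2-fold. The 8 markers of stria vascularis and endolymph lay between -0.07 and 0.09, among them Kcnq1, the potassium channel of marginal cells, at 6.55 on both arrays. Most of them, Kcnq1 included, read only 6.05 to 6.65, not far above the floors of 5.65 and 5.70. Small differences at such signals say little about these cells. What part the cells of epithelium and stria vascularis had in the Atp1b1 value was not tested.

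Atp1b3, a beta subunit found in many tissues, has 2 probe sets. The one of higher signal (10595793) read 9.34 in wild-type and 9.47 in double-knockout ear, and the other (10598994) read 8.97 and 9.10. Both therefore gave 0.13, or 1.09-fold and 1.10-fold higher, again below the probe noise. Of all genes, 24.9% were higher than this. Its 5 neighbours above the floor all had differences below 0, from -0.60 for Rnf7 through Tfdp2 (-0.37), Gk5 (-0.19) and Xrn1 (-0.07) to -0.06 for Rasa2.

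Atp1b2 (probe set 10387505), first described as an adhesion molecule on glia, read 9.24 in wild-type and 8.82 in double-knockout ear. The difference was -0.42, or 1.34-fold lower, and 6.30% of all genes had a difference as low or lower. The difference exceeded the probe noise of 0.168, which holds no variation among animals. It was 1.23 times the standard deviation of 0.344 over the 11626 genes that exceeded the floor on both. Its neighbours Wrap53, Sat2 and Fxr2 differed by -0.07, -0.04 and -0.05 and Efnb3 by 0.35, and Shbg was below the floor on both arrays. Glial lists did not share 1 direction. The astrocyte and radial glia markers had a median of 0.45, with 0 of 5 past 2-fold and Fabp7, a radial glia lipid carrier that Schwann cell precursors also make, at 11.51 and 12.02. The Schwann cell markers had a median of -0.24, with 0 of 5 past 2-fold and the neurotrophin receptor Ngfr at 9.27 and 8.75. The summed Schwann cell signal was 3760 in wild-type and 3130 in double-knockout ear, and that of astrocytes and radial glia 3760 and 5230. The skeletal muscle markers had a median of -5.25, with 15 of 15 past 2-fold and lower. The part of glia or of muscle in the Atp1b2 value was not tested.

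Fxyd1 (probe set 10562211) encodes phospholemman, the FXYD protein of heart and skeletal muscle that inhibits the pump until it is phosphorylated, and which is also made in other tissues. It read 9.43 in wild-type and 9.02 in double-knockout ear. The difference was -0.40, or 1.32-fold lower, and 6.80% of all genes were as low or lower. It too exceeded the probe noise of 0.168, which holds no variation among animals. The double-knockout signal lay 3.33 above the floor, on the array where the skeletal muscle markers summed to 657 against 32900 and where all 8 heart markers were below the floor, 3 of them above it in the wild type. Smooth muscle markers were lower with it, by a median of -0.49 with 1 of 6 past 2-fold, Acta2 at 10.82 and 9.81, and summed signals of 3370 and 2060. The part of these cells in the Fxyd1 value was not tested. Atp1b2 and Fxyd1 thus differed from the wild type by nearly the same amount, and the difference of Atp1b1 lay 0.47 and 0.45 above theirs.

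**Figure D2:**
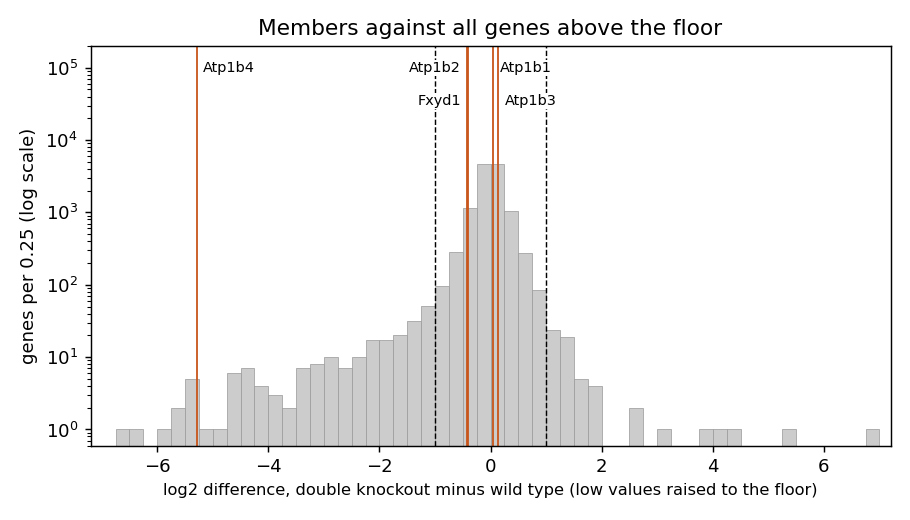
The bars count genes (logarithmic vertical axis) by log2 difference, double knockout minus wild type, for the 12458 genes that exceeded the floor on 1 array or both; dashed lines mark 2-fold and coloured lines mark the 5 genes. Atp1b4 lies at -5.29 in the thin left tail, and the other 4 genes lie between -0.42 and 0.13, inside the 2-fold lines.

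The other subunits of the pump were read where a probe set could be assigned. Of the catalytic subunits, Atp1a4, the form of sperm, read 3.94 and 4.16, below the floor on both arrays, and the others were not analysed here. The comparison across catalytic, beta and regulatory subunits therefore rests on the beta and FXYD genes. The related H,K-ATPase genes Atp4a, Atp4b and Atp12a, which serve acid secretion in the stomach and potassium uptake in the colon, were below the floor on both arrays as well. Atp4b is also an old synonym of Atp1b1, and Pml one of Fxyd1; both symbols belong to other genes, and their probe sets were kept apart by Entrez identifier.

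Of the 6 other FXYD genes, 4 were above the floor on both arrays, and 0 were past 2-fold in either direction. Fxyd3, an epithelial member, read 6.98 in wild-type and 7.61 in double-knockout ear, a difference of 0.63. Fxyd6, known in brain and inner ear, read 9.29 and 9.69, and Fxyd5, also called dysadherin, read 10.70 and 10.88. Fxyd7, a neuronal member, went the other way at 8.50 and 8.21. The kidney members Fxyd2 and Fxyd4 were below the floor on both arrays. The 4 genes above the floor had a median of 0.29, which lay on the other side of 0 from the Fxyd1 difference of -0.40. Fxyd5, Fxyd7, Fxyd1 and Fxyd3 lie close together in the gene order, and their differences of 0.18, -0.29, -0.40 and 0.63 did not run in 1 direction. Of the other neighbours of Fxyd1, Hpn differed by 0.14, and Fam187b and Lgi4 were below the floor on both arrays. Beside Fxyd3, the 7 epithelial markers ran from -0.33 for Krt14 to 0.48 for Krt18 with a median of 0.18, and the pan-neuronal markers had a median of 0.21 beside Fxyd6 and Fxyd7; the part of these cells was not tested.

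**Figure D3:**
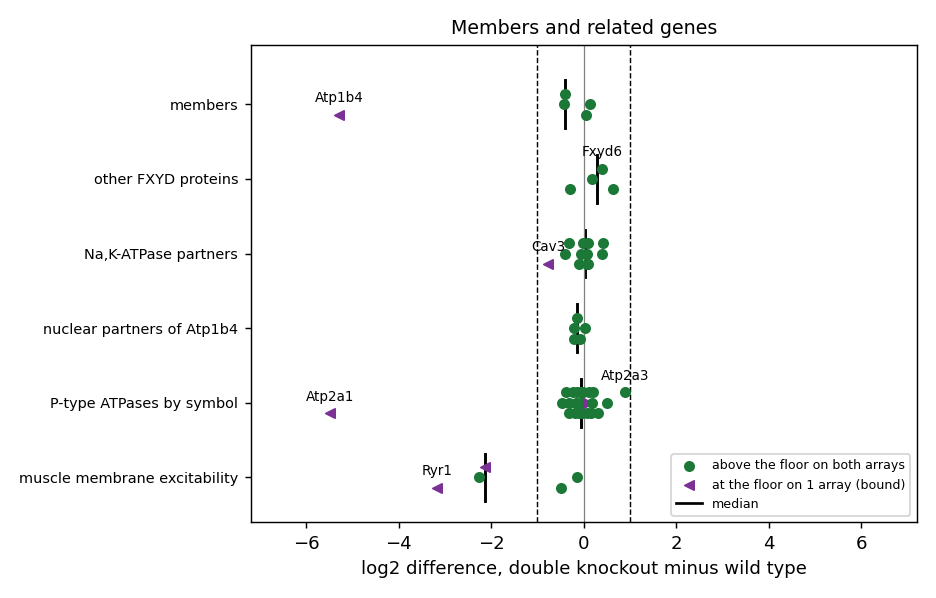
Each point is 1 gene's log2 difference, double knockout minus wild type (horizontal axis), in the family and in related lists; triangles are bounds, black bars are list medians and dashed lines mark 2-fold. Atp1b4 at -5.29 and the calcium pump Atp2a1 at -5.48 lie far left, while the 4 FXYD genes other than Fxyd1 that passed the floor lie between -0.29 and 0.63.

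Genes described as partners of the pump had a median close to 0 and ran from -0.77 (Cav3, a bound) to 0.41 (Nkain2). Of 13 with a probe set, 12 were above the floor on at least 1 array and 0 were past 2-fold, with a median of 0.03; Fxyd1 is 1 of them. Agrn, which encodes agrin, read 9.32 and 9.38. Slc12a2, the cotransporter that feeds the pump's ions in stria and glands, read 9.07 and 9.15, and Ank2, an ankyrin that anchors the pump, read 9.11 and 9.10; both were picked with their values known. Cav3, the caveolin of muscle membranes, read 6.47 in wild-type ear and 4.98, under the floor, in double-knockout ear, at least 1.71-fold lower. The sodium-calcium exchangers Slc8a1, Slc8a2 and Slc8a3, named after their values were seen, differed by 0.10, 0.39 and -0.31.

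The genes tied to the nuclear role of Atp1b4 differed little. Snw1, the co-regulator that its product binds, read 7.05 in wild-type and 7.07 in double-knockout ear. Smad7, an inhibitor of TGF-beta signalling whose transcription the Atp1b4 product has been reported to affect, read 6.86 and 6.72. Ski, Smad3 and Tgfb1 differed by -0.22, -0.08 and -0.21. All 5 were above the floor on both arrays, 0 were past 2-fold, and the median was -0.15.

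Among P-type ATPases, the superfamily of the catalytic subunits, 1 gene was, like Atp1b4, far lower with a double-knockout signal under the floor. Both differences are bounds, so neither can be called the larger. The list of P-type ATPases was gathered by gene symbol after the values had been seen. Of 32 genes 24 were above the floor on at least 1 array, 1 was at least 2-fold lower, 0 were higher, and the median was -0.05. The 1 lower gene was Atp2a1, which refills the calcium store of fast muscle fibres and which read 11.18 and 5.12, at least 44.8-fold lower. Its relative Atp2a2, of slow muscle, heart and most other cells, read 10.43 and 10.20. Of the 7 calcium pumps measured, 1 was past 2-fold and lower and 0 were past it and higher, with a median of -0.14. Of the muscle excitability genes 5 of 8 were above the floor and 3 were at least 2-fold lower: Ryr1, the calcium release channel, at least 8.99-fold, Hrc, a calcium-binding protein of the same store, 4.78-fold, and Cacna1s, the voltage sensor, at least 4.40-fold. Abcc9, a subunit of ATP-sensitive potassium channels, read 8.41 and 7.93. Their median of -2.14 depended on the floor and was -0.51 without one, where the 3 genes below the floor on both arrays also counted.

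**Figure D4:**
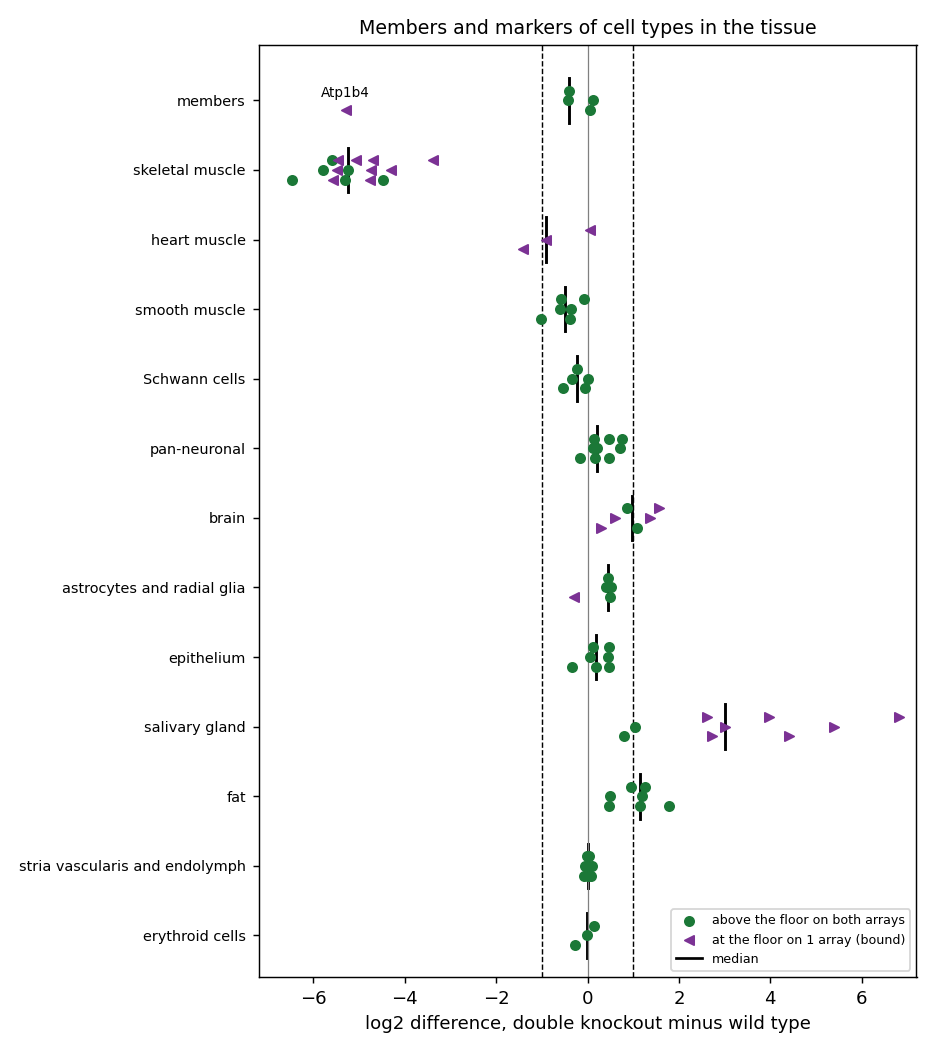
Log2 differences, double knockout minus wild type (horizontal axis), are plotted for the family and for markers of cell types; circles are measured on both arrays, triangles are bounds, black bars are medians and dashed lines mark 2-fold. Atp1b4 lies among the skeletal muscle markers (-6.46 to -3.39), and the other 4 genes lie in the range of lists near 0.

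Other lists that differed between the arrays are given for scale. Fat markers, with 4 of 7 past 2-fold and higher, had a median of 1.14, brain markers a median of 0.97 with 3 of 6, and pan-neuronal markers a median of 0.21 with 0 of 9. Erythroid markers had a median of -0.02 with 0 of 3 past 2-fold.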

How the data were processed

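The submitters' processing notes name MAS5 as the authors' software, with no version, and the deposited values were read as log2 signals from their range (0.75 to 13.27); their background correction, normalization and build: not given in the sources used here. Per the labels' protocols, 6 µg of Trizol-extracted RNA was labelled with biotin. Probe sets were named through the platform annotation by Entrez identifier, and RefSeq tables of GRCm38.p6 gave neighbours, chromosomes and promoters; 4 of the 5 genes had a promoter window. Where a gene had several probe sets, the brightest by mean linear signal was used. The floor was each array's 50th percentile. Protein sequences were not used here. Differences are double knockout minus wild type. With 1 array per group no test was possible, and the number of arrays limits precision. Members and lists were chosen with earlier results of these data known. The text names all members and FXYD genes, the 2 genes of highest signal in each related list, those past 2-fold, and the 3 nearest coding genes on each side where measured; further names are examples. The calculation was tested on simulated data (Python 3.11.15, pandas 2.3.3, numpy 2.4.6, statsmodels 0.14.6). The simulation shifted only genes of high signal, so it was not set up to check bounds such as that of Atp1b4.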

Additional observations from a re-analysis of the deposited data

How the results depend on the processing

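The alternatives were 4 other scalings, floors at the 25th and 75th percentile and none, adding the array median to linear signals as a pseudocount, averaging probe sets by their median, and calling at 1.5-fold or 3-fold. Log2 differences and medians were taken as moved when they shifted by more than the probe noise of 0.168. Counts of genes past a threshold were taken as moved when they changed from or to 0, or by a ratio above 1.5. Of 222 recomputed values, counts included, 208 did not move, 14 moved and 0 changed sign from a called value. Most of the counts were 0 in the main run, so the 208 says little about stability. The differences of Atp1b1 (0.04 to 0.09), Atp1b2 (-0.42 to -0.38), Atp1b3 (0.12 to 0.17) and Fxyd1 (-0.40 to -0.37) kept their direction under each alternative run. The floors could not alter these values, since the signals lay above each floor. Nor could the probe set median alter those of genes with 1 probe set. The difference of Atp1b4 was -6.88 and -3.64 with the floor at the 25th and 75th percentile, -7.09 with none and -4.96 with the pseudocount, since the double-knockout value lies below the floor. The median of the muscle excitability genes stood at -0.51 for the 25th percentile floor and for none. With no floor all 8 measured genes counted. These included Clcn1 (-0.35), Kcnj2 (-0.54) and Kcnj12 (-0.25), which lay below the main floor on both arrays. The median stood at -0.57 for the 75th percentile, where 1 gene was past 2-fold, and at -1.53 with the pseudocount. What moved these last values was not tested. Among the pump's partners 1 gene (Cav3) was lower with the floor at the 25th percentile, with none, and at 1.5-fold. At 1.5-fold, 1 FXYD gene and 1 calcium pump were higher. The scalings shifted the median of all genes to between -0.02 and 0.02. No paired analysis was possible because each group has 1 array.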

Other observations

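The 12 X-linked genes past 2-fold and lower in double-knockout ear included, besides Atp1b4, Smpx (9.43 in wild-type and 5.57 in double-knockout ear), Itgb1bp2 (8.69 and 5.25), Asb12 (8.63 and 3.26) and Fhl1 (11.03 and 8.68), which are known from striated muscle. Tnmd, the tenomodulin gene of tendon, read 9.45 and 8.26, and Nrk, a kinase gene, read 9.56 and 8.50. These genes were named after their values were seen. Of the 399 X-linked genes 0 were at least 2-fold higher, beside 0.49% of the autosomal genes. That share is so small that nothing is read from the 0.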
